A study of Mus musculus with 96 samples.

Results

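The Golgi and COP vesicle trafficking genes are 43 genes of the route between the endoplasmic reticulum (ER) and the Golgi, taken by symbol from a list of coat subunits, Arf GTPases, their regulators, Golgi matrix proteins, SNAREs and cargo receptors. The rule uses no measured value, but the list was chosen with earlier results of these data known. All 43 stand among the 23481 gene symbols of the deposited table, and 30 of them passed the low-count filter that left 4963 genes for testing. The study measured transcript 3′ ends by sequencing in bone marrow-derived macrophages, which are macrophages grown from marrow with MCSF, here from male C57BL/6 mice 8 weeks old. Per the labels, cells had 30 min with a small molecule and were then stimulated with lipopolysaccharide (LPS), a bacterial wall component, and lysed 4 h later. There were 12 groups of 8 libraries, 4 on each of plates 1 and 2: NoStim without LPS and without a stated vehicle, DMSO (the vehicle) with LPS, and LPS with each of BrefA, Tunicamycin, Halofuginone, tBHQ, Torin, Dexa, pGE2, Baflo, ZVAD and Caspase-1. The sources used here state no doses, no compound was given without LPS, and the labels do not say whether wells came from separate cultures, so p-values measure the spread between these wells.

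Proteins leave the ER in vesicles coated by COPII. Sar1 starts this coat, the complex of Sec23 and Sec24 binds cargo, and Sec13 and Sec31 form the outer cage. COPI coats carry receptors and escaped ER residents back from the Golgi, and they are recruited by Arf GTPases that exchange factors such as Gbf1 switch on and Arf GTPase-activating proteins switch off. KDEL receptors catch escaped ER chaperones in the Golgi and return them in COPI vesicles. In macrophages the same route carries newly made cytokines and surface receptors. The labels do not spell out BrefA. Brefeldin A, which that name most likely shortens, is known to block the large Arf exchange factors, so that COPI leaves the membranes and the Golgi merges with the ER. Tunicamycin is known to block N-linked glycosylation in the ER, and halofuginone to inhibit prolyl-tRNA synthetase.

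Library totals ran from 80196 to 379198 counts, with a median of 257984. Halofuginone libraries were the shallowest, at 80196 to 136526 counts against 201162 to 323049 in DMSO wells, and the ribosomal RNA gene Rn45s took 39.0% to 49.1% of their counts against 9.43% to 23.7%. Both differences had p = 0.000155 in an exact two-sided permutation test of 8 against 8 libraries, the smallest that 12870 permutations allow (adjusted p = 0.00171). A count of 0 allows up to 3 counts, which is 34.5 to 51.6 counts per 1e+06 (CPM) in a Halofuginone library and 9.29 to 15.98 CPM in a DMSO library, for counting error only. Over tested genes with a mean of 20 CPM or more, 7 of 8 Tunicamycin, 6 of 8 Baflo and 5 of 8 ZVAD libraries correlated best with another group's mean on the other plate. Tunicamycin plate 2 well F was at r = -0.02 with its own group and at 0.27 with NoStim. BrefA plate 2 well H correlated best with Tunicamycin (0.40, against 0.33 with BrefA). Levels below are CPM normalised by TMM scaling factors, and fold changes are log2 values with the standard error (SE) of the edgeR fit. For the labelled cell type, 9 of 10 macrophage markers were in the table and summed to group medians of 1850 to 3798 CPM. Markers of 6 other cell types summed to group medians of at most 13.9 CPM and to at most 65.9 CPM in any library. Cd3e, Mpo, Elane and Pdgfra had a count of 0 in all 96 libraries. Of the listed markers in the table, 5 of 7 for T cells, 3 of 7 for neutrophils and 5 of 6 for fibroblasts and stroma had some count.

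BrefA wells held more transcript of 4 COPI and 3 COPII coat genes, of the KDEL receptor gene Kdelr2, of Arf4 and of the tether genes Golgb1 and Trappc11 than DMSO wells. Among the 30 tested members, 12 rose and none fell in BrefA against DMSO (edgeR quasi-likelihood test, Benjamini-Hochberg adjusted p below 0.05 over 4963 genes). Across all tested genes 8.08% rose and 9.25% fell, or 17.3% in either direction, against 40% of the tested members. The members' median log2 fold change was 0.60, with 26 of 30 above 0, while the median over all tested genes was 0.01. The 43 members summed to 0.429% to 0.468% of the counts outside Rn45s in BrefA wells and 0.267% to 0.307% in DMSO wells, ranges that did not overlap. NoStim wells, at 0.327% to 0.394%, also lay wholly above the DMSO range, though below the BrefA range. Arfgap3 passed the low-count filter only with BrefA libraries in the table, so its differences in all BrefA comparisons are given as a description. Without Arfgap3, Creb3 and Sec31a, the 3 members whose passing hung on single groups, 11 of 27 rose and none fell. Without Tunicamycin plate 2 well F, Tunicamycin plate 1 well H and BrefA plate 2 well H, the same 12 members rose and none fell.

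The retrieval and cargo receptors differed among themselves. Kdelr2, one of 3 KDEL receptor genes (chr5:143403838-143421901, plus strand, GENCODE M21 on mm10), lay between 275 and 598 CPM in the 8 BrefA wells, with a median of 395. In DMSO wells it ran from 80.5 to 182 CPM with a median of 150, and the highest of all 88 libraries outside BrefA held 229 CPM, in Dexa. Every BrefA well was thus above every other library of the series. The rise was 1.46 ± 0.16 (SE) on the log2 scale, or 2.74-fold (adjusted p = 5.39e-14, n = 8 against 8). Kdelr1, its close relative, ran from 13.2 to 74.7 CPM in BrefA wells and from 17.3 to 38.7 CPM in DMSO wells, and its difference of 0.18 ± 0.27 did not pass (adjusted p = 0.753). Kdelr3 had 4 counts in all 96 libraries and was not tested. Tmed2 (0.34 ± 0.21) and Tmed10 (0.10 ± 0.14), p24 family proteins that sort cargo into both coats, did not pass either.

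**Figure D1:**
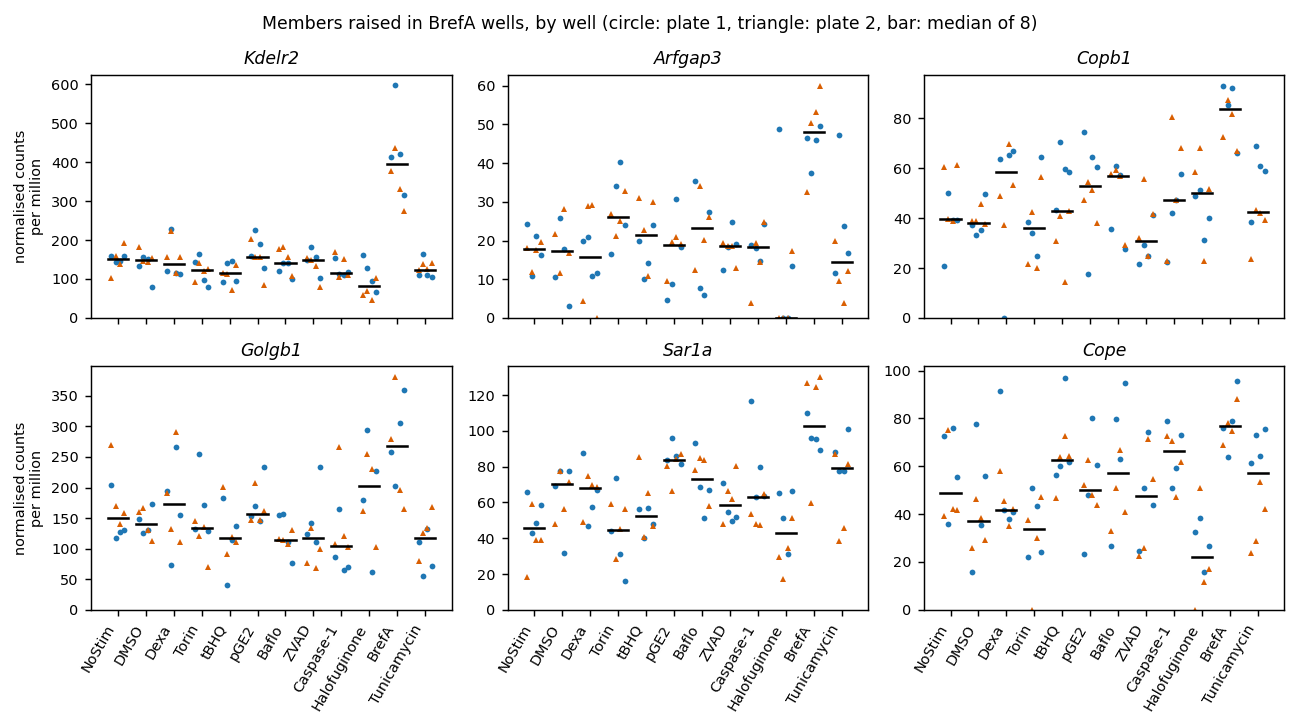
Normalised CPM (vertical axis, from 0) of 6 members in each of the 12 groups (horizontal axis), with 1 point per well, circles for plate 1, triangles for plate 2 and a bar at the median of 8. The BrefA wells of Kdelr2 all lie at or above 275 CPM, over every other point, and those of Copb1 all lie above the DMSO wells.

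Of the 5 tested COPI subunits, 4 rose in BrefA wells, and the median log2 fold change of the 5 was 0.91. Copb1, the beta subunit (chr7:114215559-114254711, minus strand), ran from 66.0 to 92.9 CPM in BrefA wells, median 83.6, and from 33.3 to 49.5 CPM in DMSO wells, median 38.2. The wells did not overlap, and the rise was 1.0 ± 0.24 on the log2 scale (adjusted p = 0.000713). Copa, the alpha subunit, had a median of 73.5 CPM (26.7 to 130) against 40.3 CPM (21.2 to 58.0), a rise of 0.97 ± 0.23 (adjusted p = 0.000453), and 7 of 8 BrefA wells exceeded the highest DMSO well. Cope (epsilon; chr8:70302518-70312993, plus strand) reached 64.0 to 95.7 CPM, median 77.03, against 15.98 to 77.8 CPM, median 37.0. Its rise was 0.91 ± 0.24 (adjusted p = 0.00189), with 4 of 8 wells above the DMSO range. Copb2 (beta prime) lay at 87.2 to 132 CPM, median 112, against 35.4 to 88.0 CPM, median 67.2, and rose by 0.74 ± 0.20 (adjusted p = 0.00402). Arcn1, the delta subunit, had a median of 90.6 CPM against 61.9 CPM, a difference of 0.52 ± 0.21 that did not pass (adjusted p = 0.0812). Copg1 and Copz1, with 516 and 524 counts over all libraries, lay below the filter, and in a fit without one Copg1 (0.76 ± 0.35) and Copz1 (-0.10 ± 0.36) did not pass.

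Not all COPII genes passed, and differences between these genes were not tested. Of 7 tested, 3 rose in BrefA wells and none fell, with a median of 0.36. Sar1a, the GTPase that starts the coat (chr10:61680299-61693297, plus strand), ran from 59.7 to 130 CPM, median 103, against 31.9 to 77.8 CPM, median 70.2, and rose by 0.72 ± 0.19 (adjusted p = 0.00272). Its paralog Sar1b had medians of 25.6 and 30.9 CPM and a difference of -0.26 ± 0.30 (adjusted p = 0.663). Sec13, of the outer cage, had a BrefA median of 59.2 CPM (19.8 to 78.2) against 30.1 CPM (15.5 to 52.0), a rise of 0.92 ± 0.27 (adjusted p = 0.00684). Its partner Sec31a differed by 0.07 ± 0.30 (adjusted p = 0.922). Among the cargo-binding Sec24 proteins, Sec24a rose by 0.70 ± 0.24 (adjusted p = 0.0282), from a median of 39.1 CPM in DMSO wells to 61.1 CPM. Sec24b (0.03 ± 0.21) and Sec24c (0.36 ± 0.28) did not pass.

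Of the 4 tested Arf genes, 1 rose. Arf4 (chr14:26638074-26665084, plus strand), a class II Arf of the Golgi and the ER-Golgi intermediate compartment, ran from 145 to 314 CPM in BrefA wells, median 216, against 102 to 166 CPM, median 140. It rose by 0.68 ± 0.17 (adjusted p = 0.00104), and 6 of 8 BrefA wells lay above the DMSO range. Arf1 (0.22 ± 0.18), the main recruiter of COPI, Arf3 (-0.16 ± 0.24) and Arf6 (-0.28 ± 0.15), which acts at the plasma membrane, did not pass. Arfgap3, a GTPase-activating protein of COPI vesicles (chr15:83299739-83350247, minus strand), held 32.6 to 59.9 CPM in BrefA wells, median 48.0, and 3.10 to 28.1 CPM in DMSO wells, median 17.2. Those wells did not overlap either, and the fitted difference was 1.46 ± 0.32 on the log2 scale, a description because of the filter. Arfgef1, the only tested gene for a large Arf exchange factor, differed by -0.22 ± 0.20 (adjusted p = 0.549), while Gbf1 and Arfgef2 had too few counts for a test. Exons of Arf4 overlap those of Pde12 on the opposite strand by 400 bases near the 3′ end, and counting by strand is not stated, so reads of these 2 genes cannot be told apart. The same holds near the 3′ ends of Creb3 (133 bases with Gba2) and Gorasp2 (230 bases with Tlk1).

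Matrix and tether genes lay mostly above DMSO, and 2 of 6 passed in BrefA wells. Golgb1, which encodes the tether giantin (chr16:36875140-36933085, plus strand), had a median of 268 CPM (166 to 381) against 140 CPM (113 to 173). It rose by 0.90 ± 0.23 (adjusted p = 0.00234), with 7 of 8 BrefA wells above the highest DMSO well. Trappc11, of the TRAPP tethering complexes, rose by 1.69 ± 0.52 (adjusted p = 0.0129) from a median of 8.98 CPM in DMSO wells to 27.5 CPM (7.11 to 91.8). That DMSO median was the lowest of the 12 groups, and the log2 differences of Trappc11 ran from 0.44 to 2.08 over the 10 compound comparisons, which share the same DMSO wells. Uso1 (0.60 ± 0.23, adjusted p = 0.0611), Golga2 (0.60 ± 0.32), Gorasp2 (0.64 ± 0.28) and Golga4 (0.45 ± 0.20) did not pass. The SNARE gene Sec22b (0.23 ± 0.22) and Creb3, which encodes a membrane-bound transcription factor tied to Golgi stress (0.76 ± 0.40), did not pass either.

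On the limits of the BrefA result, each plate alone, with 4 wells a group, called fewer members, 5 on plate 1 and 6 on plate 2, where 10.1% and 9.97% of all genes tested passed. The calls of Sar1a, Sec13 and Copb2 were lost without the wells of letter G, those of Sec24a without letter E, F or H, and that of Trappc11 without letter E or H.

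The 13 members below the filter were given a test only in a fit without any filter. There the COPII genes Sec23a (1.75 ± 0.44, adjusted p = 0.00280) and Sec24d (1.38 ± 0.42, adjusted p = 0.0265) rose in BrefA against DMSO. That fit called 4.96% of all genes. Sec23a was also higher in Halofuginone than in DMSO wells (1.87 ± 0.55, adjusted p = 0.00685), and BrefA against Halofuginone gave -0.12 ± 0.45. With the other compounds it ran from -0.06 (Caspase-1) to 1.15 (ZVAD) against the same DMSO wells, none past the threshold. In that fit BrefA against Tunicamycin passed for Sec23a (1.35 ± 0.42, adjusted p = 0.0317). BrefA against tBHQ did not (0.91 ± 0.39, adjusted p = 0.114). Sec23a had 54 counts over the 8 BrefA wells and 15 over the 8 DMSO wells, and Sec24d had 54 against 20.

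**Figure D2:**
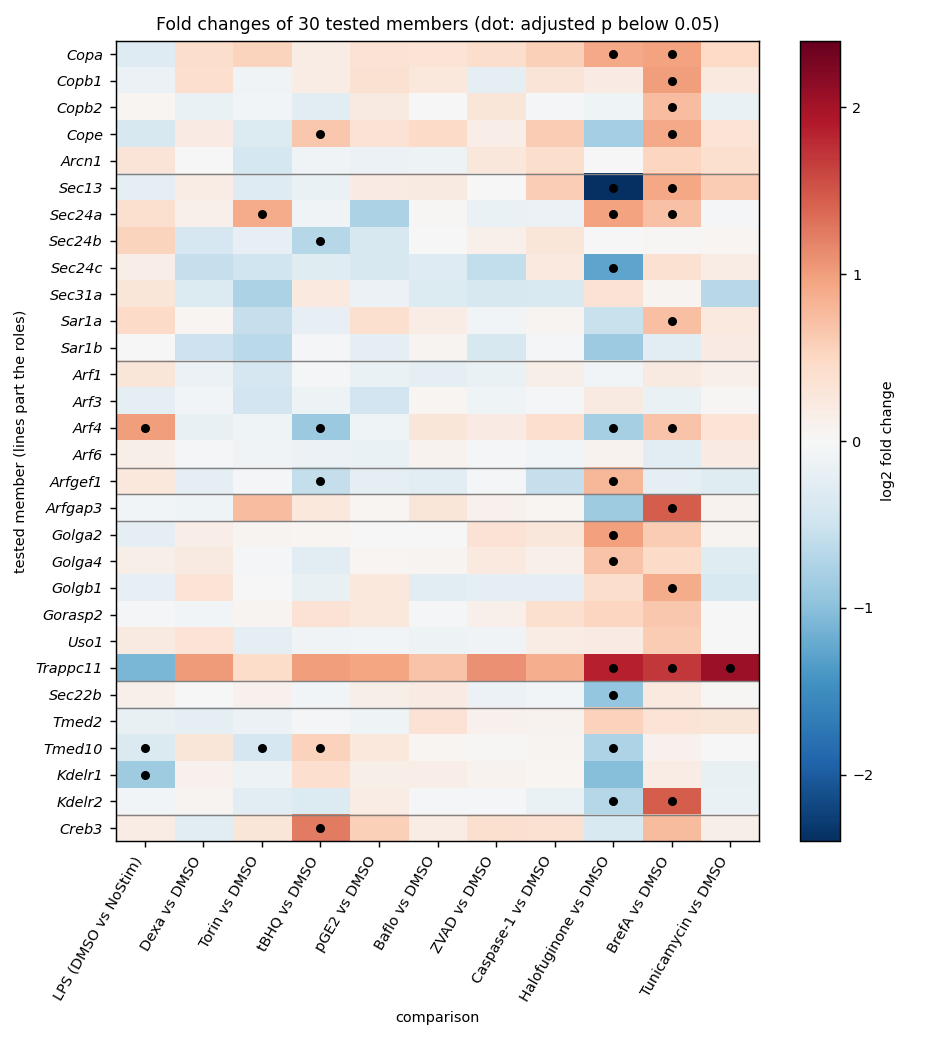
Log2 fold changes (colour scale) of the 30 tested members (vertical axis, grouped by role) in 11 comparisons (horizontal axis), with a dot where the edgeR adjusted p was below 0.05. The BrefA column holds 12 dots, all for higher levels, and the Halofuginone column 6 for higher and 6 for lower levels.

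The promoters of these genes were searched for stress elements because several coat and receptor genes rose in the same wells. RefSeq promoter windows (GRCm38.p6) were found for 36 of 43 members, and the 250 bases before each start were read on both strands. Kdelr2 and Golgb1, which rose in BrefA wells, had no window and were not searched. There are 3 elements shown, with their letters in capitals: the core of the unfolded protein response element (UPRE), TGACGTGG, the core of the Golgi stress element (GASE), ACGTGGC, and the cyclic AMP response element (CRE), TGACGTCA. The UPRE core stood in 5 members. Of these, Copb1 rose in BrefA wells, and Sec24d did in the fit without a filter. The UPRE core overlaps the GASE core by 6 letters. Each stretch below is 30 bases long and reads 5′ to 3′ on the gene's strand. Windows follow the RefSeq start, and GENCODE M21 annotates exons further upstream for some genes: the stretches of Arf1, Gbf1, Sec24d and Cope lie wholly in annotated exon, 22 bases of the Copb1 stretch do, and none of the Kdelr3 and Sar1a stretches.
Copb1, UPRE core as its reverse complement, chr7:114254690-114254719, minus strand: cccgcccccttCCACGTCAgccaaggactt
Arf1, UPRE core, chr11:59228228-59228257, minus strand: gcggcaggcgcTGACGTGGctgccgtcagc
Gbf1, UPRE core as its reverse complement, chr19:46152528-46152557, plus strand: ctagactgaggctagttaCCACGTCAgtga
Sec24d, UPRE core, chr3:123267459-123267488, plus strand: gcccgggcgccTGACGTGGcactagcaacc
Kdelr3, UPRE core as its reverse complement, chr15:79516367-79516396, plus strand: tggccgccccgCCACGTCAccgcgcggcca
Sar1a, GASE core as its reverse complement, chr10:61680116-61680145, plus strand: tgacagacgctGCCACGTcttaccccgctt
Cope, CRE, chr8:70302546-70302575, plus strand: gcggaggaatgTGACGTCAcggagagaccc

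The UPRE core was in the windows of 0.900% of the 3778 tested genes with one. Arf1, Gbf1, Sec24d and Kdelr3 carry it as well, and of these Arf1 was tested and did not pass while the other 3 lay below the filter. The GASE core was in 8 members (Arf1, Arf5, Creb3, Kdelr3, Sar1a, Sec24c, Sec24d and Uso1) and in 4.00% of tested genes. Of the 10 tested members with a window that rose in BrefA wells, 1 held it, Sar1a, and of the 13 tested members with a window that did not pass, 4 did. The CRE was in Cope alone, against 3.49% of tested genes. The shorter CCACG, part of the ER stress element, was in 22 of the 36 members with a window, tested or not, and in 47.6% of tested genes. Among tested members with a window, it was in 4 of the 10 that rose and in 9 of the 13 that did not pass. The whole window of Sar1a, which holds no annotated exon base of that gene, is given as the example of a raised member, with the letters of these elements and of TGACG (a shorter form of the CRE) in capitals.
Sar1a promoter, chr10:61680035-61680284, plus strand: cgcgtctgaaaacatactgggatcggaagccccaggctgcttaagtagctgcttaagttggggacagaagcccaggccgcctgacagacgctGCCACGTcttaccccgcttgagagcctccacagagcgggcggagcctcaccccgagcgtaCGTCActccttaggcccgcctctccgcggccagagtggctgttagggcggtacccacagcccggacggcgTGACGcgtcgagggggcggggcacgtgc
A match of letters is a description of these windows, and binding was not measured here.

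Other genes of the route were counted in the same contrast, where 8.08% of all tested genes rose and 9.25% fell (17.3% in all). Of 57 other tested ER-Golgi trafficking genes, 9 rose and 1 fell in BrefA against DMSO, with a median of 0.14. The SNARE gene Bet1l (1.94 ± 0.19), the membrane protein gene Yipf5 (1.63 ± 0.19) and the giantin partner Acbd3 (1.54 ± 0.22) rose, and Cyth4, an Arf exchange factor of the cytohesin family, fell by 1.61 ± 0.24 on the log2 scale. Of 26 Golgi-resident enzyme and Golgi stress genes, 5 rose and 3 fell, with Stx3 (1.48 ± 0.17), Slc35b1 (1.03 ± 0.27) and Mgat2 (0.94 ± 0.25) among those higher. Of 13 trans-Golgi clathrin adaptor genes, none rose and 1 fell, Ap1s3, by 0.45 ± 0.15. Of 36 tested ER stress genes, 25 rose and 1 fell, with a median of 0.80, led by Herpud1 (3.72 ± 0.25), Ddit3 (3.15 ± 0.28), Atf4 (2.58 ± 0.15) and Asns (2.39 ± 0.37).

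Tunicamycin wells provided a second ER stressor for comparison, with the same LPS and time. Against DMSO, 1 of 30 tested members rose and none fell in them, where 2.8% of all tested genes rose and 1.57% fell (4.37% in all). That member was Trappc11, at 2.08 ± 0.50 (adjusted p = 0.00557), with wells from 7.65 to 154 CPM and a median of 28.8 against the low DMSO median of 8.98. The call was lost on each plate alone and with same-named wells of both plates summed. The ER stress list had 4 of 36 higher and none lower: Herpud1 (2.15 ± 0.28), Ddit3 (1.54 ± 0.33), Atf4 (1.496 ± 0.158) and Hspa5 (0.53 ± 0.11). Of the other trafficking genes, 2 fell, Gcc2 by 0.86 ± 0.25 and Tmf1 by 0.67 ± 0.18.

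Tested directly, BrefA wells were above Tunicamycin wells at 7 of 30 members and below at 1, where 6.99% of all tested genes were higher and 9.93% lower (16.9% in all). Kdelr2 ran from 105 to 164 CPM in Tunicamycin wells, entirely below the BrefA wells, and the difference was 1.62 ± 0.16 (adjusted p = 5.40e-16). Golgb1 (1.27 ± 0.24), Copb2 (0.90 ± 0.21), Copb1 (0.78 ± 0.23), Golga4 (0.75 ± 0.21) and Sec24a (0.73 ± 0.24) were higher in BrefA wells. The seventh, Arfgap3 (1.38 ± 0.31), is a description because of the filter. Arf6 was lower in BrefA wells by 0.48, with an SE of 0.15 (log2 -0.48, adjusted p = 0.0139). Copa (0.49 ± 0.21), Cope (0.58 ± 0.23), Sar1a (0.48 ± 0.19), Arf4 (0.34 ± 0.16) and Sec13 (0.31 ± 0.25), which rose against DMSO, did not differ between these compounds past the threshold, which does not show that they are equal. Without the 3 libraries named above, 7 members were higher and none lower in BrefA than in Tunicamycin wells, beside 17.3% of all genes past the threshold.

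**Figure D3:**
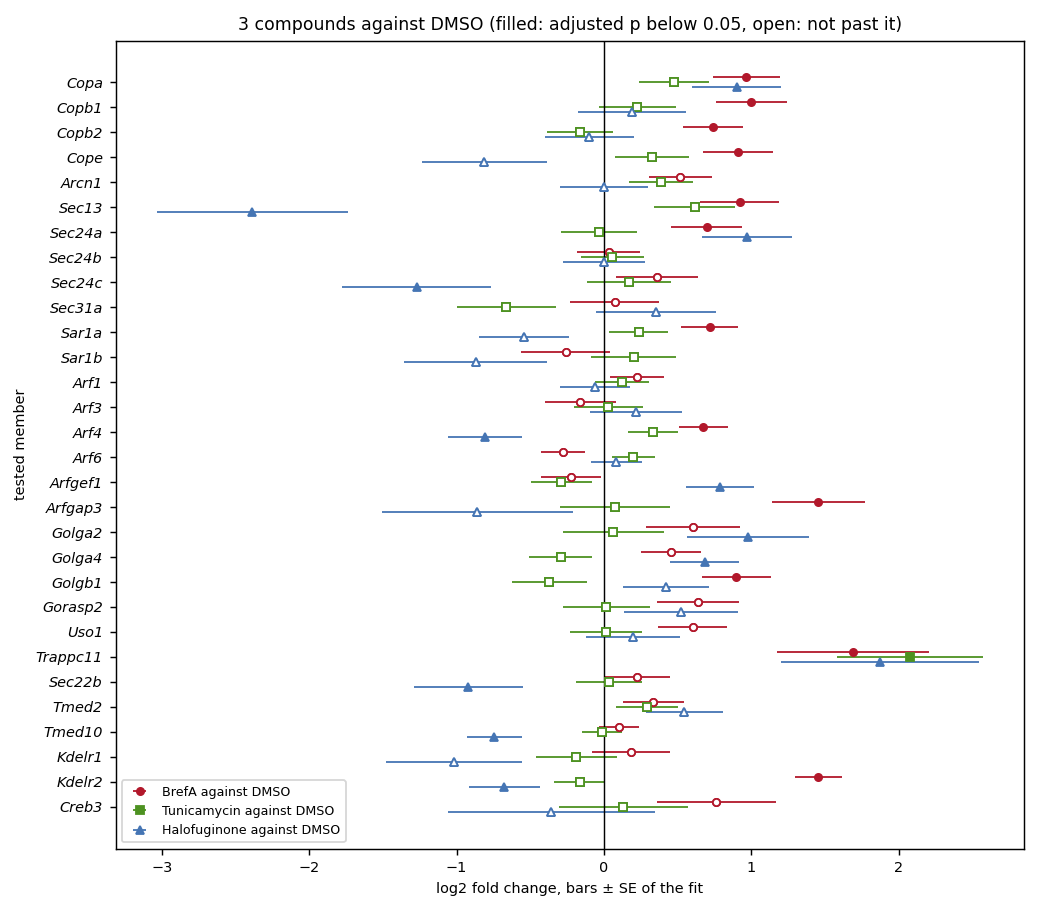
Log2 fold changes against DMSO (horizontal axis, bars ± SE of the fit) of the 30 tested members (vertical axis) for BrefA (circles), Tunicamycin (squares) and Halofuginone (triangles), filled where the edgeR adjusted p was below 0.05. BrefA points are filled for 12 members and Tunicamycin for Trappc11 alone, and Sec13 lies at -2.39 for Halofuginone and 0.92 for BrefA.

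Few of the members passed between DMSO wells with LPS and NoStim wells. NoStim wells had no stated vehicle and other well letters, so LPS, vehicle and well position cannot be told apart. In DMSO with LPS against NoStim, 1 of 30 rose and 2 fell, or 10%, where 19.5% of all tested genes rose and 16.6% fell (36.1% in all). Arf4 ran from 35.3 to 100 CPM in NoStim wells, median 58.2, and from 102 to 166 CPM in DMSO wells, median 140, so the wells did not overlap. It rose by 1.01 ± 0.19 on the log2 scale (adjusted p = 2.33e-06). Kdelr1 (chr7:45872772-45883732, plus strand) was at 44.7 to 63.5 CPM without LPS, median 56.3, and at 17.3 to 38.7 CPM with it, again without overlap. It fell by 0.86 ± 0.24 on the log2 scale (adjusted p = 0.00228). Tmed10 (chr12:85340614-85374847, minus strand) fell by 0.34 ± 0.13 (adjusted p = 0.0348), from a median of 274 to 220 CPM with overlapping wells. This call was lost with same-named wells summed (adjusted p = 0.169), without a filter and on each plate alone. It was also lost without letter E or F (A or B in NoStim wells). With RLE scaling, which took the all-gene median from -0.04 to -0.19, Arf4 stood at 0.86, Kdelr1 at -1.01 and Tmed10 at -0.49, all past the threshold. No coat subunit passed: the 5 COPI genes had a median of -0.15 and the 7 COPII genes of 0.28. The members summed to a larger share of the counts outside Rn45s in NoStim wells (0.327% to 0.394%) than in DMSO wells (0.267% to 0.307%).

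Arf4 passed in 4 of the 11 comparisons with DMSO wells, those of LPS, BrefA, tBHQ and Halofuginone. In tBHQ wells, it ran from 47.0 to 131 CPM with a median of 64.0, and 7 of 8 wells lay below the lowest DMSO well. It fell by 0.89 ± 0.19 (adjusted p = 4.06e-05). Halofuginone wells held 51.2 to 126 CPM, median 67.4, a fall of 0.81 ± 0.25 (adjusted p = 0.00648). Tunicamycin wells spread from 93.4 to 299 CPM around a median of 151, and their difference of 0.33 ± 0.17 did not pass. Arf1 had DMSO wells from 126 to 155 CPM and NoStim wells from 88.0 to 143 CPM, Arf3 DMSO wells from 30.4 to 63.0 CPM, and Arf6 DMSO wells from 186 to 264 CPM, and none of these 3 passed in any of the 11 comparisons. Arf5 had 156 counts in all and was not tested.

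**Figure D4:**
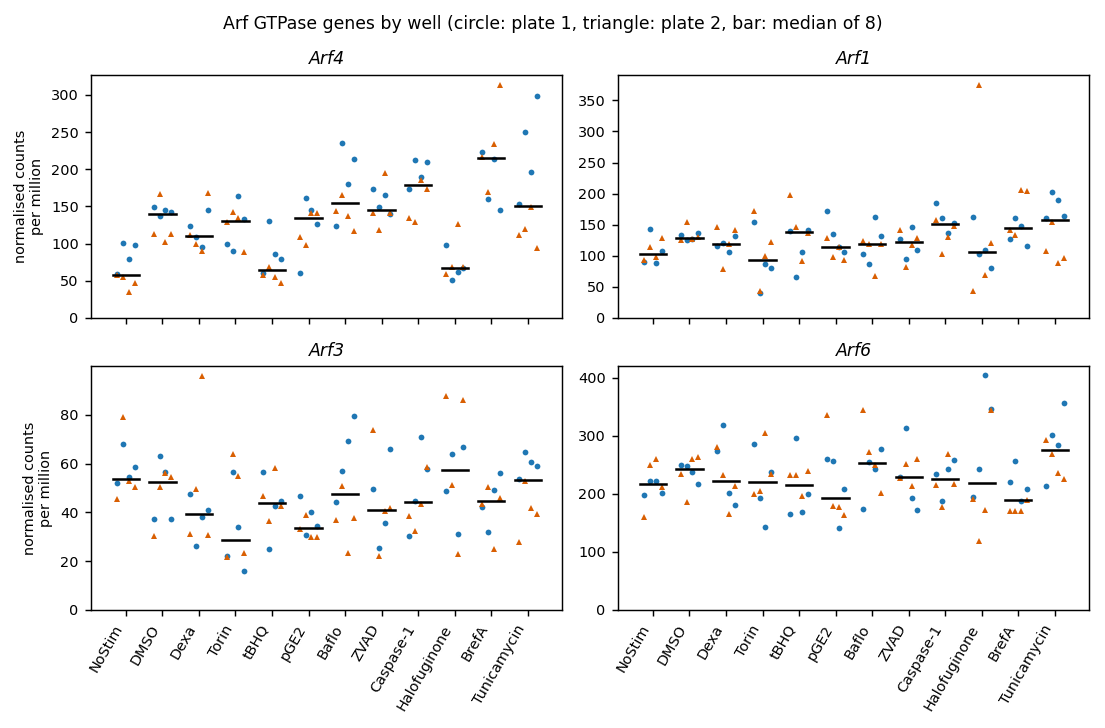
Normalised CPM (vertical axis, from 0) of the 4 tested Arf genes in the 12 groups (horizontal axis), with 1 point per well, circles for plate 1, triangles for plate 2 and a bar at the median of 8. For Arf4 the NoStim wells end at 100 CPM, just under the lowest DMSO well at 102 CPM, and the BrefA median of 216 CPM is the highest of the groups.

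tBHQ, a compound known to activate NRF2, moved 6 of 30 members against DMSO, 3 up and 3 down, or 20%, where 17.3% of all tested genes rose and 19.1% fell (36.4% in all). Tmed10 was at 273 to 348 CPM in tBHQ wells, median 326, above all DMSO wells at 159 to 257 CPM, and rose by 0.55 ± 0.13 (adjusted p = 0.000340). Creb3 stood 1.24 ± 0.38 higher, with medians of 13.8 and 32.3 CPM, and passed the filter only with tBHQ and ZVAD libraries in the table, so this too is a description. Cope rose by 0.65 ± 0.24 (adjusted p = 0.0246), from a median of 37.0 to 62.7 CPM. The call of Cope was lost with same-named wells summed, without a filter, on each plate alone and without letter G. Beside Arf4, Sec24b fell by 0.69 ± 0.23 (adjusted p = 0.0118; medians 94.3 and 55.1 CPM), and Arfgef1 fell by 0.57 ± 0.21 (adjusted p = 0.0255; medians 114 and 63.7 CPM). RLE scaling took the all-gene median from 0.04 to 0.19, and under it Arfgef1 no longer passed (adjusted p = 0.0910). Without the wells of letter F, or of letter H, 3 members passed, beside 29.8% and 31.1% of all genes tested in those fits. Against tBHQ wells, BrefA wells were higher at 14 of 30 members and lower at 1, Tmed10 (log2 -0.45 ± 0.13), beside 18.7% of all tested genes higher and 17.6% lower (36.4% in all). Kdelr2 (1.78 ± 0.16) and Arf4 (1.57 ± 0.18) were the 2 largest of those 14 differences, which include Arfgap3.

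In Halofuginone wells 6 of 30 tested members were higher and 6 lower than in DMSO wells, or 40%, beside 15.3% of all tested genes higher and 25% lower (40.3% in all), with an all-gene median of -0.20. The higher members were Trappc11 (1.87 ± 0.67), Golga2 (0.98 ± 0.41), Sec24a (0.97 ± 0.30), Copa (0.90 ± 0.30), Arfgef1 (0.79 ± 0.23) and Golga4 (0.68 ± 0.24), 3 of them matrix or tether genes. Golga4, a trans-Golgi golgin, ran from 230 to 359 CPM, median 292, against 110 to 265 CPM, median 192. Lower were Sec13 (-2.39 ± 0.65), Sec24c (-1.27 ± 0.51), Sec22b (-0.92 ± 0.37), Arf4, Tmed10 (-0.74 ± 0.19) and Kdelr2 (-0.68 ± 0.24). Sec13 had 3 counts over the 8 Halofuginone wells and 63 over the DMSO wells, a ratio of 0.179 per normalised count with an exact 95% counting interval of 0.0360 to 0.549. Depth and Rn45s share did not overlap between these groups, so they cannot be told apart from the compound. The call of Sec22b was lost with RLE scaling, with DESeq2 and without any 1 letter, that of Sec24c with DESeq2 and without any 1 letter, and that of Kdelr2 without letter E or G. Among the higher members, Golga2 lost its call without letter F or G, Golga4 without F or H, Copa without E or G, and Trappc11 and Arfgef1 without G, and Arf4, among the lower, without H. In the fit without a filter, which called 14.6% of all genes, all 6 higher members lost their calls and the 6 lower kept theirs. With the Rn45s share as a covariate, 1 member passed, beside 16.5% of all tested genes, and Golga2 (-0.23), Golga4 (-0.54) and Arfgef1 (-0.41) turned to the other sign.

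BrefA against Halofuginone gave 12 members higher and 1 lower, Arfgef1 (log2 -1.01 ± 0.23), beside 24% of all tested genes higher and 16.2% lower (40.2% in all) and an all-gene median of 0.17. Kdelr2 (2.13 ± 0.22), Arf4 (1.48 ± 0.24), Cope (1.72 ± 0.38) and Sar1a (1.26 ± 0.29) were among the 12, which include Arfgap3. Copa (0.07 ± 0.27) and Sec24a (-0.28 ± 0.28), which rose in both compounds against the shared DMSO wells, did not pass. Depth and Rn45s share did not overlap between these groups either, so they cannot be told apart from the compounds. With the Rn45s share as a covariate, which called 15.1% of all genes, Cope, Copb1, Kdelr1, Sec22b, Sec24c and Tmed10 lost their calls. Kdelr2, Arf4, Sar1a, Sec13, Copb2 and Arfgap3 kept theirs, and Arfgef1 turned to the other sign (0.15).

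**Figure D5:**
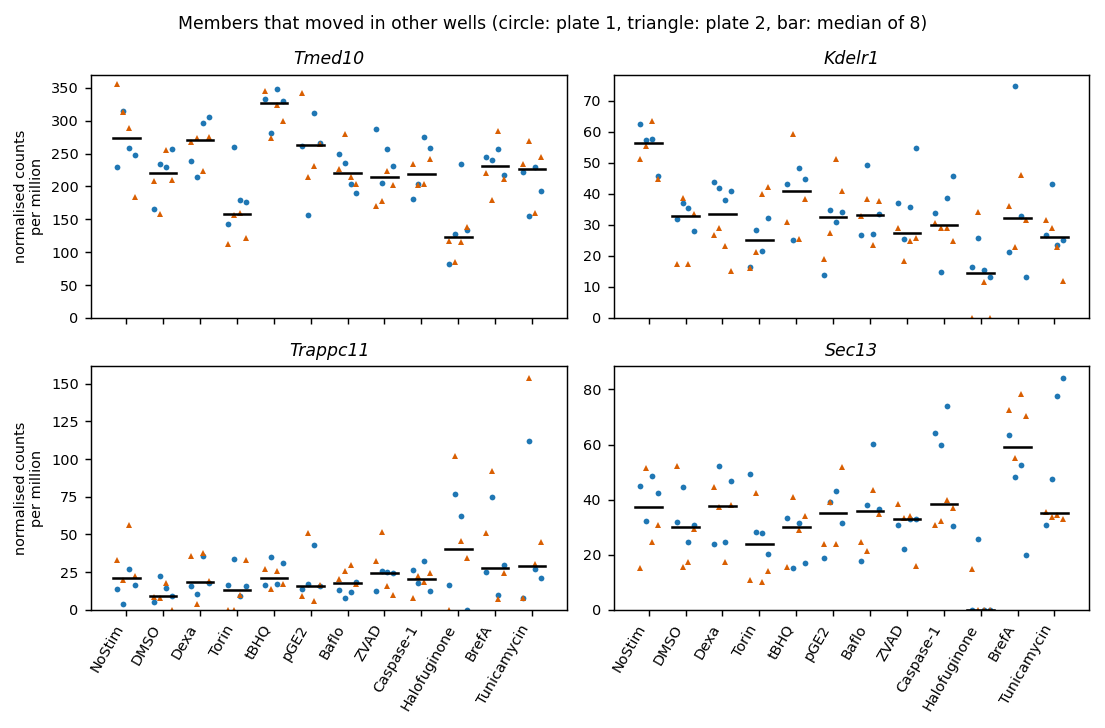
Normalised CPM (vertical axis, from 0) of Tmed10, Kdelr1, Trappc11 and Sec13 in the 12 groups (horizontal axis), with 1 point per well, circles for plate 1, triangles for plate 2 and a bar at the median of 8. The tBHQ wells of Tmed10 begin at 273 CPM, above all DMSO wells, and the Halofuginone median of Sec13 is 0.

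Torin, the name of a family of mTOR kinase inhibitors, raised 1 member and lowered 1 of 30, where 9.61% of all tested genes rose and 7.11% fell (16.7% in all). Sec24a ran from 51.7 to 88.5 CPM in Torin wells, median 67.0, above all DMSO wells at 12.6 to 49.6 CPM. It rose by 0.88 ± 0.24 (adjusted p = 0.00436) and did not pass on either plate alone. Tmed10 fell by 0.40 ± 0.15 (adjusted p = 0.0412; medians 220 and 158 CPM), a call lost with same-named wells summed, without letter E, G or H, or with Rn45s and Lars2 left out.

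There were 5 compounds that left all 30 tested members short of the threshold in edgeR and in DESeq2: Dexa, pGE2, Baflo, ZVAD and Caspase-1. Of all tested genes, 3.57%, 11.2%, 0%, 0% and 2.9% passed in these comparisons with edgeR, in that order. By direction, 1.95% of tested genes were higher and 1.61% lower with Dexa, 5.2% higher and 5.98% lower with pGE2, and 1.39% higher and 1.51% lower with Caspase-1. At an unadjusted p below 0.05, 1, 2, 0, 2 and 6 of the 30 members would be counted, beside 12.5%, 22.1%, 7.52%, 3.55% and 18.9% of all tested genes. For Baflo and ZVAD, where no gene passed, 373 and 176 genes had an unadjusted p below 0.05, and DESeq2 called 0.580% and 0% of genes.

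Over the 11 comparisons with DMSO wells, 21 of 30 tested members passed in at least 1, 12 of them in 1 only and 9 in 2 or more, beside 72.4% of all tested genes that passed in at least 1. Without Arfgap3, Creb3 and Sec31a the count was 19 of 27. The 9 that passed in none were Arcn1, Sec31a, Sar1b, Arf1, Arf3, Arf6, Gorasp2, Uso1 and Tmed2. In bulk wells of this kind, fewer cells with a transcript and less of it per cell cannot be told apart.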

How the data were processed

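Gene counts for 96 libraries of transcript 3′ ends (modified SCRB-Seq and Nextera, per the labels) were deposited as 1 table. The authors aligned reads with BWA to mm10, per the submitters' processing notes. The annotation, strand use and collapsing of PCR copies are not stated in the sources at hand, so counts may not be independent molecules. All values were checked to be whole numbers.

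Groups and plates came from the labels. With edgeR 4.0.16 in R 4.3.3, genes were kept by filterByExpr on the groups (4963), scaled by TMM, and fitted in one model of group and plate over all 96 libraries with robust quasi-likelihood F tests, two-sided, adjusted by Benjamini-Hochberg over all tested genes of each of 14 comparisons (threshold 0.05). CPM were counts scaled to 1e+06 by library total and TMM factor. Library totals and Rn45s shares were compared with DMSO by exact permutation, adjusted over 11 comparisons. The model was tested on simulated data.

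The members and all gene lists were chosen with earlier results of these data known. The naming rule took all members and, from each other list, up to 4 passing genes a comparison with the largest changes and 10 or more mean CPM. Alternatives were RLE scaling, DESeq2 1.42.0, no filter and a filter at 20 CPM, no plate term, each plate alone, same-named wells of both plates summed, a block of well letter, the compared groups alone, Rn45s and Lars2 left out, each letter left out, and Tunicamycin plate 2 well F left out. The Rn45s covariate and the fit without 3 libraries were chosen after seeing the data. Coordinates are from GENCODE M21 and promoters from RefSeq GRCm38.p6. Figures used matplotlib 3.10.9 in Python 3.11.15.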

Additional observations from a re-analysis of the deposited data

Results flagged for a closer look

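Among 129 sets of 8 wells examined, 9 values lay far from the other wells of their group (by Dixon's test of the gap to the nearest well). By chance alone about 1 in 20 of the sets examined would hold such a value. For genes, the wells were all on plate 1 and all the highest of their group. Arf4 in tBHQ plate 1 well F was at 131 CPM, with the next well at 85.5. Arfgap3 was at 48.8 CPM in Halofuginone plate 1 well E (next 17.2) and at 47.4 CPM in Tunicamycin plate 1 well F (next 23.6). Tmed10 was at 234 CPM in Halofuginone plate 1 well G (next 138) and at 261 CPM in Torin plate 1 well F (next 180).

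For libraries, the Rn45s share of DMSO plate 1 well G was 9.43%, with the next lowest at 17.8%. The members' share of counts outside Rn45s was 0.394% in NoStim plate 2 well A (next 0.347%) and 0.331% in Torin plate 1 well F (next 0.275%). Tunicamycin plate 2 well H had a total of 360197 counts, with the next at 262276.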

How the results depend on the processing

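Of 251 recomputed counts of members past the threshold over the 14 comparisons, 219 stayed within 1.5 times the reported count. In the order plate 1 alone and plate 2 alone, with fewer wells, BrefA against DMSO gave 5 and 6 and tBHQ 3 and 2. Halofuginone gave 4 and 7, Torin 0 and 0, and Tunicamycin 0 and 0. Of all genes tested, these fits called 10.1% and 9.97% for BrefA, 23.6% and 22.8% for tBHQ, and 25.4% and 24.5% for Halofuginone. They called 8.56% and 6.71% for Torin and 7.39% and 0.102% for Tunicamycin. Plate 1 alone gave 1 for LPS (29.7% of all genes), 1 for Caspase-1 (3.79%), 7 for BrefA against Halofuginone (24.1%) and 6 for BrefA against tBHQ (23.2%). Plate 2 alone gave 5 for BrefA against Tunicamycin (7.63% of all genes). Fitting the compared groups alone tests fewer genes with fewer libraries. It gave 6 for Halofuginone (59.9% of all genes), 0 for Tunicamycin (3.55%) and 8 for BrefA against Halofuginone (58.2%). With same-named wells summed, Tunicamycin gave 0 (1.58% of all genes) and Torin 1 (10.5%). Torin also gave 1 without a filter (4.73% of all genes), without Rn45s and Lars2 (16.3%), with the Rn45s covariate (18.8%) and without the 3 libraries (16.9%). The cause was not tested. Leaving out each letter in turn gave 1 to 2 for Torin (11.2% to 13.3% of all genes) and 3 to 6 for tBHQ (29.2% to 35.0%). It gave 5 to 8 for Halofuginone (32.1% to 34.6%) and 0 to 1 for Tunicamycin (2.00% to 3.28%).

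With the Rn45s share as a covariate, Halofuginone gave 1, and its values for Arfgef1 (-0.41), Golga2 (-0.23), Golga4 (-0.54) and the clathrin gene Cltc (-0.000994) changed sign, as did BrefA against Halofuginone for Arfgef1 (0.15) and Cltc (0.11). A fit with a replicate block of well letter within plate gave 13 members for BrefA against DMSO, all higher, and 12 for Halofuginone. That fit called 18.6% and 42.1% of all genes in these comparisons. It moved none of the member counts of the 13 comparisons it could be run on by over 1.5 times. It was not run for LPS, since NoStim wells have other letters. At most 2 of 8 compound and DMSO wells of the same plate and letter had deviations correlated above 0.1, so letters were not taken as pairs across groups. Wells of 1 compound with the same letter on plates 1 and 2 had mean correlations of 0.036 to 0.18, above 0.1 in 5 of 12 groups (not BrefA or DMSO), and whether such wells are separate cultures is not stated. In BrefA against DMSO, the 12 raised members stayed called under RLE scaling, DESeq2, the block and the Rn45s covariate, and 11 of them without a filter and with wells summed. On plate 2 alone, ER stress genes had 17 called in place of 26 in BrefA against DMSO and other trafficking genes 6 in place of 10. Golgi enzyme genes had 8 called, and 4 on plate 1, 3 on plate 2, 5 without letter G and 4 without letter H.

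Of 1260 recomputed fold changes of called members, 1069 stayed past the threshold with their sign, 187 no longer passed and 4 changed sign. Members under about 20 CPM were limited by depth, above all in Halofuginone libraries.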

Other observations

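Of 26 tested Golgi-resident enzyme and Golgi stress genes, 5 rose and 3 fell with LPS, beside 36.1% of all tested genes past the threshold in either direction. The heparan sulfate polymerase gene Ext1 (1.82 ± 0.20, adjusted p = 9.45e-15) and the galactosyltransferase gene B4galt5 (1.66 ± 0.14, adjusted p = 2.56e-21) were higher in DMSO with LPS than in NoStim wells, and B4galt1 fell by 1.35 ± 0.17 on the log2 scale (adjusted p = 8.71e-12, edgeR). Of 57 other ER-Golgi trafficking genes, 3 rose and 7 fell with LPS. Bet1l, which rose in BrefA wells, fell with LPS by 0.71 ± 0.20 (adjusted p = 0.00258), while Cyth4 fell in both comparisons, with LPS by 0.77 ± 0.19. Both comparisons share the DMSO wells, and vehicle and well letter differ along with LPS between DMSO and NoStim wells.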
